A study of Mus musculus with 28 samples.

Results

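Matrix metalloproteinases (MMPs) are zinc-dependent enzymes that are secreted or anchored in the membrane and that cleave collagen, elastin and other proteins of the extracellular matrix. Most are made as inactive proenzymes, and the tissue inhibitors of metalloproteinases (TIMPs) block their active site. In tumors both are made by cancer cells, fibroblasts, macrophages and neutrophils, so a change in a whole tumor can come from any of these. The genes described here are 7 MMPs (Mmp2, Mmp3, Mmp9, Mmp10, Mmp12, Mmp13 and Mmp14) and 3 inhibitors (Timp1, Timp2 and Timp3). The rule takes rows by gene symbol and uses no measured value: 9 of the 10 matched a row, out of 18463 different symbols in the table. Mmp10 matched no row and was not analysed here.

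RNA was measured in 28 libraries of 3LL mouse lung cancer cells (Lewis lung carcinoma), 16 from tumors and 12 from cells in culture, in 7 groups of 4. WT cells were unedited. KEAP1-KO cells carried a frameshift insertion in Keap1, whose product holds the transcription factor NRF2 in check, and DKO cells were made from KEAP1-KO cells by also editing the Nrf2 gene, so that both knockout lines lacked KEAP1. Tumors were grown under the skin of both flanks of male albino C57BL/6 mice, 6 weeks old at injection, and taken after 10 days. In Experiment A each mouse carried a WT tumor on the left and a KEAP1-KO tumor on the right, and in Experiment B a KEAP1-KO tumor on the left and a DKO tumor on the right, so that genotype and flank cannot be told apart. Each knockout line was established from a single colony. The difference of either line from WT, and that of DKO from KEAP1-KO, cannot be told apart from that of the clone, in cells or in tumors. The labels do not say that the 4 libraries of a group came from separate cultures or animals, so the p-values measure the spread between these libraries, which may be technical.

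Turned back from the values, the rows of the table held 4222365 to 7524264 reads in a library. These are the reads in the rows kept and not the sequencing depth. The edited gene Keap1 gave log2 differences of -1.43 (tumors of Experiment A) and -1.86 (cells) between KEAP1-KO and WT. The second edit has no such check, since the Nfe2l2 row (the gene of NRF2) is for a processed transcript. Nqo1, a classical NRF2 target, followed the labels: its level was higher by 5.55 (log2) in KEAP1-KO than in WT tumors and lower by 6.30 in DKO than in KEAP1-KO tumors (log2 difference -6.30). The values are log2(normalized count + 4), in which a normalized count is a read count scaled by a factor of its own library, so that 2 is the value of a gene with no read and differences of genes near that floor are understated. "Called" means an adjusted p under 0.05 in limma with Benjamini-Hochberg adjustment over all rows tested, and errors of differences are standard errors (SE).

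The 9 members rest on unlike rows. Mmp2, Mmp3, Mmp9, Mmp13 and Timp1 have a row for the gene (ENSMUSG00000031740, ENSMUSG00000043613, ENSMUSG00000017737, ENSMUSG00000050578 and ENSMUSG00000001131). The other 4 have a row for 1 transcript: a retained intron of Mmp12 (ENSMUST00000148005), a transcript of Mmp14 marked for nonsense-mediated decay (ENSMUST00000197874), a protein-coding transcript of Timp2 (ENSMUST00000155707) and a processed transcript of Timp3 (ENSMUST00000151134). Of these, only the Timp2 row is annotated as coding for protein, and the values of the others need not follow the gene's total mRNA. Levels are therefore compared between groups for each member, never between members.

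Several of these genes lie side by side. On mouse chromosome 9 the order in RefSeq is Mmp13, Mmp12, Mmp1b, Mmp3, Mmp1a, Mmp10, Mmp8, Mmp27, Mmp20 and Mmp7. The promoters of the 4 members in this cluster share the recognition sequence of AP-1, the dimer of FOS and JUN proteins known to drive MMP genes (TGACTCA or its reverse complement TGAGTCA). It was found in the window from 250 bases before to 50 bases after the start of Mmp3, Mmp10, Mmp13 and 1 of the 2 starts of Mmp12, against 5.2% of the 32851 promoters in the RefSeq table, and in none of the windows of Mmp14, Timp1, Timp2 and Timp3. The 3 promoters below are shown because 2 of these genes changed together in the tumors and the other, with the same site, did not pass the test. They are the 250 bases before each start on the forward strand of GRCm38.p6, 5′ to 3′, with the AP-1 sequence in capitals, which begins 35 bases before the start in Mmp13, 44 in Mmp12 and 46 in Mmp3.
Mmp13, chr9:7272264-7272513: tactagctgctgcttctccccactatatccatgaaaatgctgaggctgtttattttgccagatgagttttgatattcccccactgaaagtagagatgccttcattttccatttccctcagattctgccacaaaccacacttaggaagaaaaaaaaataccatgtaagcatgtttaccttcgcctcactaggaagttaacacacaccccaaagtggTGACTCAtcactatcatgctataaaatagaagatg
Mmp12, downstream start, chr9:7347124-7347373: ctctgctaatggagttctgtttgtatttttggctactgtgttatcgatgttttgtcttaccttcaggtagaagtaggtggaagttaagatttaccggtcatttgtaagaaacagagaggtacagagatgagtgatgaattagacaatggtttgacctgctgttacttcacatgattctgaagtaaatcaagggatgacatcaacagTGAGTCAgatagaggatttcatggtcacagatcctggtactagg
Mmp3, chr9:7445572-7445821: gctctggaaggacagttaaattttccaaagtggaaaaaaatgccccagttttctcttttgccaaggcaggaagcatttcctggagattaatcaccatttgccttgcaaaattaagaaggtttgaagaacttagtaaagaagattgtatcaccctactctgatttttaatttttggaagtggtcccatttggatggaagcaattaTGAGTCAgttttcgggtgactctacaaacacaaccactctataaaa
The core of the antioxidant response element, which NRF2 binds with a small MAF protein (TGACNNNGC, searched on both strands, with no overlap with the AP-1 sequence in these windows), was found in 12.4% of all promoters. Among the 8 members with a promoter in the table it was found in that of Timp2 alone, as GCGCAGTCA beginning 152 bases before the start. Mmp2 and Mmp9 were not searched. A match of letters shows no binding, and no binding was measured.

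**Figure D1:**
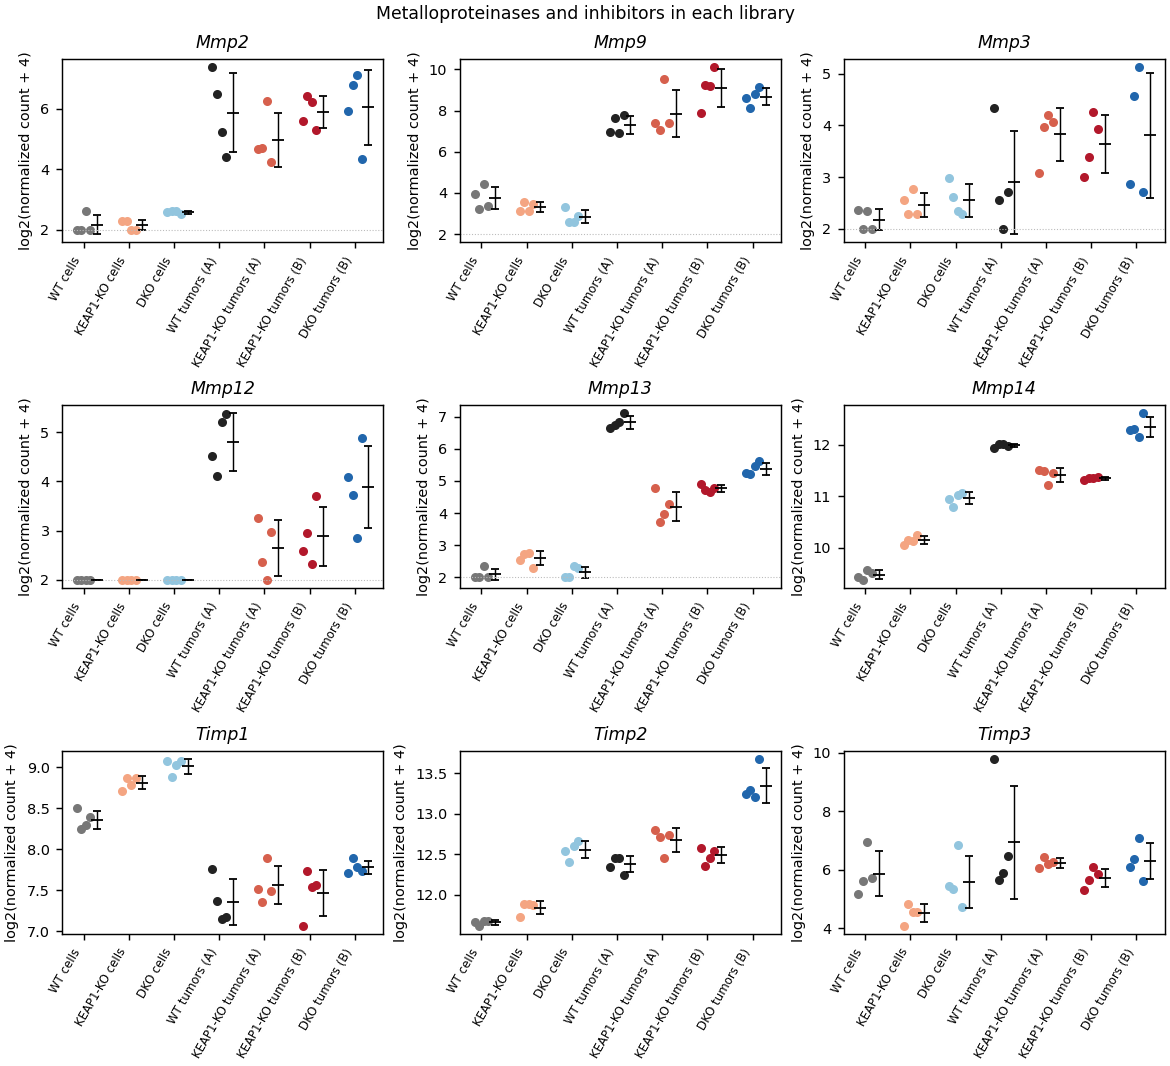
Each panel plots 1 gene, with a point for each of the 4 libraries of a group and the mean with its SD beside them, in log2(normalized count + 4) and on an axis of its own (the dotted line at 2 marks no reads). Mmp12 and Mmp13 were highest in the WT tumors, Mmp14 and Timp2 in the DKO tumors and Timp1 in the DKO cells.

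In culture the rows of the collagenase and the elastase of the chromosome 9 cluster held few or no reads, that of the elastase being a retained intron. Mmp13, a collagenase that cleaves fibrillar collagen, had 0 or 1 read in each WT cell library, 1 to 3 in each KEAP1-KO library and 0 or 1 in each DKO library. Mmp12, the elastase of macrophages, had no read in any of the 12 cell libraries. Neither entered the test within cells. In the tumors Mmp13 had 8 to 158 reads in a library and Mmp12 0 to 44.

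Mmp13 read 97.0, 101.9, 110.6 and 134.1 normalized counts in the 4 WT tumors and, on the other flank, 23.3, 9.3, 11.6 and 15.6 in KEAP1-KO tumors. In the mice of Experiment B it read 25.9, 22.3, 21.3 and 23.7 in the KEAP1-KO tumors and 34.0, 33.0, 39.7 and 45.2 in the DKO tumors. Every WT tumor was above every other tumor, and every DKO tumor above every KEAP1-KO tumor. Mmp13 fell in the KEAP1-KO tumors by 2.65 (SE 0.20, adjusted p = 2.0e-07, n = 4 per group, limma). In DKO against KEAP1-KO tumors the log2 difference was 0.61 (SE 0.20, adjusted p = 0.0679), which missed the threshold, although the groups did not overlap; with only these 2 groups in the fit the adjusted p was 0.0452. The DKO tumors of Experiment B remained below the WT tumors of Experiment A (log2 difference -1.45, SE 0.20, adjusted p = 1.5e-04), a comparison across experiments and flanks.

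Mmp12 read 18.9, 13.3, 32.9 and 37.3 normalized counts in the WT tumors and 5.6, 1.2, 0.0 and 3.9 in KEAP1-KO tumors of Experiment A. It read 2.0, 3.7, 1.0 and 9.0 in KEAP1-KO tumors of the Experiment B mice and 13.1, 9.3, 3.2 and 25.6 in the DKO tumors. WT and KEAP1-KO tumors did not overlap, whereas the DKO tumors overlapped with both. Mmp12 fell in the KEAP1-KO tumors by 2.15 (SE 0.44, adjusted p = 0.00342). The difference between DKO and KEAP1-KO tumors was 1.0 (SE 0.44, adjusted p = 0.206). These values rest on few reads, 14 to 44 in a WT tumor and 0 to 5 in a KEAP1-KO tumor of Experiment A. A second transcript of Mmp12, one without a symbol in the table (ENSMUST00000127722), read 5.4, 14.3, 10.1 and 43.3 in the WT and 0.0, 0.0, 2.9 and 1.9 in the KEAP1-KO tumors (log2 difference -1.86, SE 0.51, adjusted p = 0.0226).

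Mmp3, the stromelysin that degrades proteoglycans and can activate other proenzymes, gave no such pattern. Its normalized counts were 16.2, 1.9, 0.0 and 2.5 in the WT tumors, and 4.4, 11.6, 14.5 and 12.7 in KEAP1-KO tumors of Experiment A. Those of Experiment B were 4.0, 6.5, 15.2 and 11.3 in the KEAP1-KO and 3.3, 19.6, 30.8 and 2.6 in the DKO tumors. All 4 groups overlapped. The log2 difference of KEAP1-KO from WT tumors was 0.92 (95% confidence interval -0.28 to 2.13, adjusted p = 0.356) and that of DKO from KEAP1-KO tumors 0.17 (-1.04 to 1.37, adjusted p = 0.918), and both intervals hold 0 as well as differences above 1 log2 unit.

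Mmp14, the membrane-anchored collagenase MT1-MMP that with TIMP2 activates proMMP2 on the cell surface, was read in every library. In culture it stood at 680.7, 659.3, 753.0 and 723.1 normalized counts in WT cells, at 1057.0, 1121.0, 1106.1 and 1207.8 in KEAP1-KO cells, and at 1977.7, 1768.7, 2088.2 and 2127.0 in DKO cells. The 3 lines were fully separated, in that order. Mmp14 rose by 0.67 (log2, SE 0.07, adjusted p = 1.7e-05) from WT to KEAP1-KO cells and by a further 0.82 (SE 0.07, adjusted p = 4.4e-06) from KEAP1-KO to DKO cells. These values are of the decay transcript. Of the transcripts without a symbol that could be tested in cells, ENSMUST00000198679 was higher in KEAP1-KO than in WT cells (0.47, adjusted p = 0.04) and had a difference of 0.08 (adjusted p = 0.834) between DKO and KEAP1-KO cells. ENSMUST00000197947 had differences of 0.14 (adjusted p = 0.856) and 0.76 (adjusted p = 0.261), so the second step passed the test for the decay transcript alone.

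In the tumors the first of these differences had the opposite sign. Mmp14 read 3950.6, 4114.2, 4119.9 and 4049.1 in the WT tumors and 2920.1, 2898.7, 2363.1 and 2820.7 in the KEAP1-KO tumors of Experiment A, a fall of 0.57 (log2 difference -0.57, SE 0.08, adjusted p = 2.2e-04). In Experiment B it read 2533.7, 2613.2, 2607.2 and 2649.2 in KEAP1-KO and 5037.0, 5086.2, 4556.3 and 6311.1 in the DKO tumors, a rise of 1.0 (SE 0.08, adjusted p = 1.5e-06). The 2 sets of KEAP1-KO tumors overlapped and lay below all other tumors, and the DKO tumors lay above them all. The DKO tumors exceeded the WT tumors by 0.36 (SE 0.08, adjusted p = 0.011), a call that was lost without the trend in the variance (adjusted p = 0.0689). In that comparison the transcripts without a symbol gave -0.10 (ENSMUST00000198679, adjusted p = 0.712), 0.54 (ENSMUST00000197947, adjusted p = 0.146) and 0.43 (ENSMUST00000226710, adjusted p = 0.688), none of them called. Of the 3 other transcripts of Mmp14 (no symbol in the table), ENSMUST00000198679 also fell in the KEAP1-KO tumors (log2 difference -0.42, SE 0.13, adjusted p = 0.037). ENSMUST00000197947 (-0.28, adjusted p = 0.499) and ENSMUST00000226710 (-0.79, adjusted p = 0.396) did not pass the test, nor did any of the 3 in DKO against KEAP1-KO tumors (differences of 0.29 to 0.80).

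The gelatinases cleave denatured collagen and the collagen of basement membranes. Mmp9 read 119.5, 194.3, 116.1 and 213.9 normalized counts in the WT tumors and 164.5, 127.2, 735.2 and 165.5 in the KEAP1-KO tumors of Experiment A. It read 232.4, 600.5, 590.4 and 1091.7 in the KEAP1-KO and 386.8, 275.1, 446.0 and 568.8 in the DKO tumors of Experiment B. Every tumor of Experiment B exceeded every WT tumor, while 3 of the 4 KEAP1-KO tumors of Experiment A lay within the range of the WT tumors. KEAP1-KO and WT tumors differed by 0.53 (SE 0.50, adjusted p = 0.585), a difference carried by replicate 3 and gone without it (-0.03). DKO and KEAP1-KO tumors differed by -0.43 (SE 0.50, adjusted p = 0.71). DKO tumors were higher than WT tumors by 1.36 (SE 0.50), with an adjusted p of 0.0995 in the fit of all tumors and 0.0141 in the fit of these 2 groups alone.

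Mmp2 varied widely within every group of tumors. It read 160.8, 84.8, 33.8 and 17.0 normalized counts in the WT tumors and 21.1, 22.0, 72.5 and 14.6 in the KEAP1-KO tumors of Experiment A. It read 43.9, 81.9, 70.0 and 35 in the KEAP1-KO and 57.0, 106.1, 135.2 and 16.2 in the DKO tumors of Experiment B. All 4 groups overlapped, and no comparison between tumors was called, with log2 differences of -0.91 (SE 0.66, adjusted p = 0.445) for KEAP1-KO minus WT and 0.17 (SE 0.66, adjusted p = 0.931) for DKO minus KEAP1-KO. KEAP1-KO replicate 3 of Experiment A was the highest of its group in both gelatinases.

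In culture Mmp2 had 0 to 2 reads in each library and was not tested, and Mmp9 had 5 to 16 reads in WT, 5 to 9 in KEAP1-KO and 2 to 6 in DKO cells. For Mmp9 the difference between DKO and WT cells was -0.89 (SE 0.30, adjusted p = 0.0591), with an adjusted p of 0.0373 to 0.155 over the alternatives tried.

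Timp2, which inhibits MMPs and also binds MT1-MMP as the receptor for proMMP2, was higher in the DKO group both in culture and in tumors. It read 3250.9, 3140.0, 3279.5 and 3277.9 normalized counts in WT cells, 3376.2, 3790.3, 3786.8 and 3761.2 in KEAP1-KO cells, and 5955.6, 5442.8, 6197.5 and 6514.4 in DKO cells. DKO cells exceeded KEAP1-KO cells by 0.71 (SE 0.05, adjusted p = 2.8e-06) and the 3 lines did not overlap. The rise from WT to KEAP1-KO cells was 0.18 (SE 0.05, adjusted p = 0.0407), and this call was lost in 10 of 15 alternatives, among them leaving out any 1 of the 4 WT libraries or KEAP1-KO replicate 2, 3 or 4 (highest adjusted p = 0.235).

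In the tumors Timp2 read 5197.1, 5623.2, 5592.9 and 4880.2 in WT and 7139.4, 6680.9, 5629.4 and 6860.3 in KEAP1-KO tumors of Experiment A. It read 6133.8, 5267.1, 5616.2 and 5952.7 in KEAP1-KO and 9675.4, 9984.8, 9449.3 and 13163.6 in DKO tumors of Experiment B. The DKO tumors stood above all others. Timp2 rose by 0.87 (SE 0.10, adjusted p = 3.1e-05) in DKO against KEAP1-KO tumors and was higher by 0.98 (SE 0.10, adjusted p = 1.0e-05) than in WT tumors. The difference between KEAP1-KO and WT tumors, 0.30 (SE 0.10), had an adjusted p of 0.0584 although the groups did not overlap; without KEAP1-KO replicate 3 it was 0.37 (adjusted p = 0.0179), and with median centring 0.35 (adjusted p = 0.032).

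Timp1, a soluble inhibitor known to be induced by inflammatory signals, rose from WT to KEAP1-KO cells. It read 356.9, 300.0, 310.9 and 332.6 normalized counts in WT, 415.2, 463.9, 435.6 and 464.7 in KEAP1-KO and 532.5, 468.7, 516.6 and 533.7 in DKO cells, with no overlap between lines. The rise from WT to KEAP1-KO cells was 0.45 (SE 0.07, adjusted p = 6.3e-04), and the difference between DKO and KEAP1-KO cells 0.20 (SE 0.07, adjusted p = 0.105). Among tumors Timp1 lay between 130.7 and 233.9 in all 16, with overlap between neighbouring groups and no comparison called, although DKO minus WT passed without WT replicate 1 (0.55, adjusted p = 0.0315; 0.42 and adjusted p = 0.108 with it).

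Timp3, the inhibitor that is held in the matrix, was set by 1 library among the WT tumors. It read 879.4, 45.7, 54.8 and 84.0 normalized counts there, and 62.2, 82.1, 68.6 and 73.0 in KEAP1-KO tumors of the opposite flank. The difference between KEAP1-KO and WT tumors was -0.71 (SE 0.65, adjusted p = 0.569) with WT replicate 1 and 0.24 (adjusted p = 0.703) without it. That tumor also had the highest sums of its group for fibroblast markers (12621.8 normalized counts against 4972.6 to 7247.0 in the other WT tumors) and for markers of pericytes and smooth muscle (1043.8 against 200.3 to 247.7), and the highest Mmp2 and Mmp3 of its group. The part of these cells in its Timp3 was not tested. In Experiment B the difference between DKO and KEAP1-KO tumors was 0.56 (SE 0.65, adjusted p = 0.709), with overlap between the groups. In culture Timp3 read 31.9, 45.3, 120.3 and 48.3 in WT and 13, 24.5, 19.8 and 19.7 in KEAP1-KO cells, which did not overlap. It read 39.1, 36.8, 110.0 and 22.2 in DKO cells. The log2 difference between KEAP1-KO and WT cells was -1.35 (SE 0.44, adjusted p = 0.059). It passed with these 2 groups alone (adjusted p = 0.0346), with the replicate block (0.0233) and without WT replicate 1 (0.0422). That between DKO and KEAP1-KO cells was 1.07 (SE 0.44, adjusted p = 0.196).

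**Figure D2:**
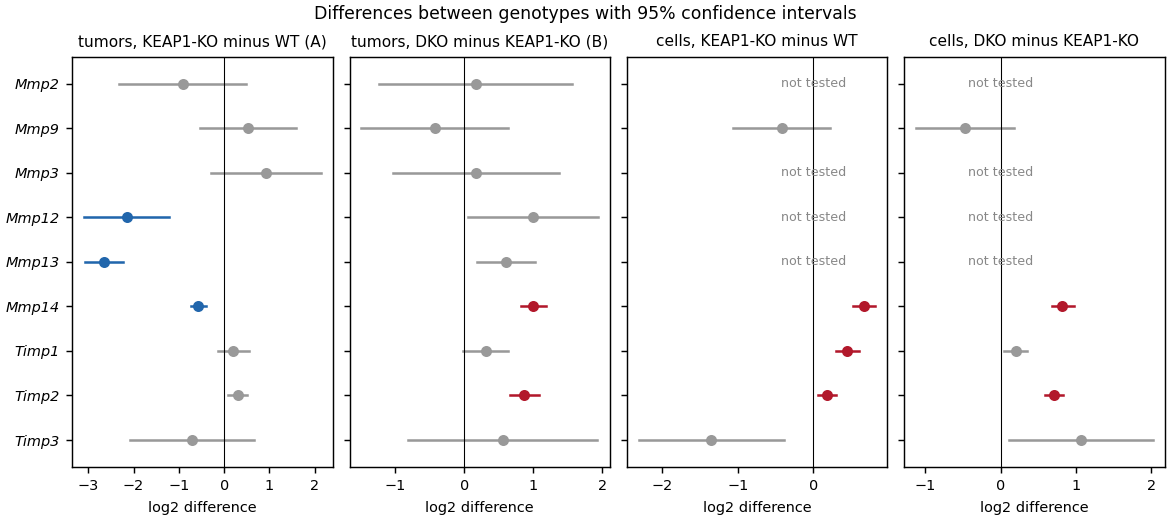
Points are log2 differences between genotypes in tumors and in cells and bars their 95% confidence intervals, in red for called and higher, in blue for called and lower and in gray for not called. Mmp12, Mmp13 and Mmp14 fell in KEAP1-KO tumors, Mmp14 and Timp2 rose with the added loss of NRF2 in tumors and in cells, and the intervals of Mmp2, Mmp3, Mmp9 and Timp3 in tumors are wide.

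Set against the whole table, 3 of the 9 members tested were called in KEAP1-KO against WT tumors, all lower, where 13.1% of all rows were called. In DKO against KEAP1-KO tumors 2 of 9 were called, both higher, against 8.86% of all rows, and in DKO against WT tumors 3 of 9 (Mmp14 and Timp2 higher, Mmp13 lower) against 10.6%. The median difference of the members was -0.57 in KEAP1-KO minus WT tumors and 0.56 in DKO minus KEAP1-KO tumors, beside medians of -0.03 and 0.00 over all rows tested. The KEAP1-KO tumors of the 2 experiments, which had the same genotype on opposite flanks, gave no member called, against 0.164% of all rows, although Mmp13 (0.58, unadjusted p = 0.00948) and Mmp9 (1.27, unadjusted p = 0.0219) were under 0.05 before adjustment in limma, the only test run. In culture, where 5 members were tested, 3 were called in KEAP1-KO against WT cells (15.5% of all rows), 2 in DKO against KEAP1-KO cells (8.83%) and 3 in DKO against WT cells (17.7%), all of them higher. Those 3 in DKO against WT cells were Mmp14 (1.49), Timp2 (0.89) and Timp1 (0.65).

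Whether the difference between genotypes was itself different in tumors and in culture was tested with an interaction in 1 fit of all 28 libraries. For KEAP1-KO minus WT it was called for 3 of 9 members, against 5.38% of all rows. The interaction was -1.24 (SE 0.11, adjusted p = 5.3e-08) for Mmp14, which was higher in KEAP1-KO cells and lower in KEAP1-KO tumors than in their WT counterparts. It was -3.14 (SE 0.27, adjusted p = 3.6e-08) for Mmp13 and -2.15 (SE 0.50, adjusted p = 0.00791) for Mmp12, genes whose values in the cells were at or near the floor. Of the transcripts without a symbol, ENSMUST00000198679 of Mmp14 was also called (-0.89, adjusted p = 0.0012). Not called were ENSMUST00000197947 (-0.42, adjusted p = 0.693) and ENSMUST00000226710 (-0.92, adjusted p = 0.598) of Mmp14 and ENSMUST00000127722 of Mmp12 (-1.86, adjusted p = 0.0563). For DKO minus KEAP1-KO 1 of 9 members was called, Mmp13 (1.04, SE 0.27, adjusted p = 0.0291), against 3.67% of all rows, and its call was lost in 9 of 23 alternatives: quantile normalization, or without replicate 2 or 3 of the KEAP1-KO cells, 1 or 2 of the DKO cells, 2 or 3 of the KEAP1-KO tumors, or 3 or 4 of the DKO tumors (highest adjusted p = 0.0668). For Timp2 the differences in tumors and cells were not told apart (interaction of 0.16, 95% confidence interval -0.09 to 0.41, adjusted p = 0.641), and for Mmp14 likewise (0.18, -0.05 to 0.41, adjusted p = 0.52), save with quantile normalization (0.37, adjusted p = 0.0404).

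Tumors were then compared with cultured cells of the same genotype. The tumors hold host cells as well as 3LL cells, and in such bulk samples fewer cells of a type and less RNA per cell cannot be told apart. The median of all rows was higher in tumors by 0.16 to 0.23, and member differences should be read against that shift. Of the 9 members 7 were called in WT (38.8% of all rows), 8 in KEAP1-KO of Experiment A (39.6%), 8 in KEAP1-KO of Experiment B (38.8%) and 8 in DKO (43.5%). Mmp2, Mmp9, Mmp13, Mmp14 and Timp2 were higher in tumors, and Timp1 was lower, for all 4 sets of tumors.

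Mmp9 had log2 differences of 3.57 in WT, 4.52 and 5.79 in KEAP1-KO of Experiments A and B, and 5.83 in DKO (SE 0.43 each). Mmp13 differed by 4.75 in WT, by 1.60 and 2.18 in KEAP1-KO, and by 3.23 in DKO (SE 0.19 each). Mmp2 was higher by 2.81 to 3.73 (SE 0.54). For Mmp2, Mmp9 and Mmp13 the size of these differences depends on the offset of 4, since the cells had few or no reads: with an offset of 1 Mmp9 in DKO was at 6.62. Mmp12, with no read in cells, was at least 7.48-fold higher in WT tumors and at least 4.06-fold higher in DKO tumors, set against a floor of 3 reads per cell library; its call in KEAP1-KO of Experiment B (0.89, adjusted p = 0.0471) was lost in 9 of 15 alternatives.

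Mmp14 was higher in tumors by 2.52 in WT, 1.29 and 1.21 in KEAP1-KO and 1.39 in DKO (SE 0.08 each), and Timp2 by 0.71, 0.83, 0.64 and 0.80 (SE 0.09 each). The size of the Timp2 differences depended on the scaling, at 0.32, 0.60, 0.37 and 0.44 with median centring and 1.37, 1.35, 1.24 and 1.5 with quantile normalization, all of them called. Quantile normalization also put Mmp14 in DKO at 2.17. Timp1 went the other way, with differences of -1.0, -1.24, -1.33 and -1.23 (SE 0.13 each, highest adjusted p = 5.1e-07), and none of the 16 tumors reached the lowest cell library, at 300.0 normalized counts. Mmp3 was called in KEAP1-KO of both experiments and in DKO (1.17 to 1.35, SE 0.46), but each of these calls was lost with quantile normalization or median centring (adjusted p between 0.0504 and 0.138). Timp3 was called in KEAP1-KO of Experiment A only (1.72, SE 0.60, adjusted p = 0.0238), a call lost in 4 of 15 alternatives: with quantile normalization (adjusted p = 0.066), with median centring (0.0513), without KEAP1-KO cell replicate 1 (0.0612) and without KEAP1-KO tumor replicate 2 (0.052). The other sets gave 0.71 to 1.21 (adjusted p of 0.115 to 0.364), of which the 1.21 in Experiment B passed with only the groups compared (adjusted p = 0.00258).

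**Figure D3:**
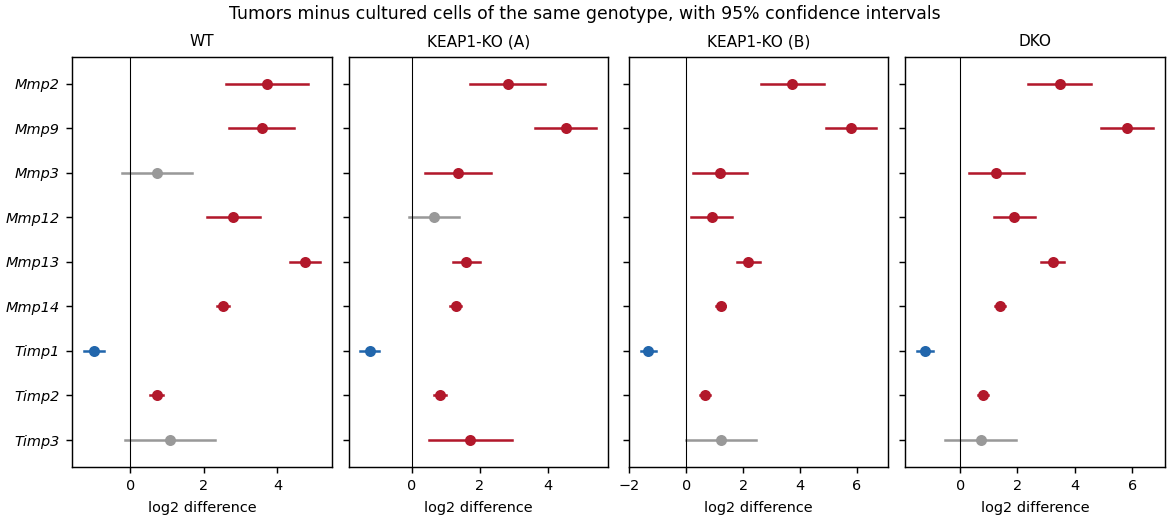
Points are log2 differences of tumors from cultured cells of the same genotype and bars their 95% confidence intervals, in red for called and higher, in blue for called and lower and in gray for not called. Timp1 alone lies below 0 in all 4 panels, and Mmp9 lies between 3.57 and 5.83.

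The value of a protease was also set against that of an inhibitor known to bind it, within each library. Its absolute level depends on the length and kind of the 2 rows, so that only its change between groups can be read. Mmp14 minus Timp2 was -2.20 ± 0.06 (SD, n = 4) in WT, -1.71 ± 0.07 in KEAP1-KO and -1.60 ± 0.02 in DKO cells. In tumors it was -0.39 ± 0.08 in WT, -1.26 ± 0.04 and -1.14 ± 0.11 in the KEAP1-KO tumors of Experiments A and B and -1.01 ± 0.06 in DKO tumors. The WT tumors stood apart from the 3 other groups of tumors, between -0.45 and -0.27. These differences rest on 1 decay transcript of Mmp14 and 1 transcript of Timp2.

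Mmp9 minus Timp1 was -4.62 ± 0.53 in WT, -5.49 ± 0.17 in KEAP1-KO and -6.16 ± 0.28 in DKO cells. In cells Mmp9 rested on 2 to 16 reads in a library. None of its differences between the lines was called (lowest adjusted p = 0.0591, limma), so the change across the lines is uncertain. In tumors it was -0.05 ± 0.62 in WT, 0.28 ± 0.91 and 1.64 ± 0.71 in KEAP1-KO and 0.90 ± 0.50 in DKO. Tumors and cells did not overlap, and both groups of Experiment A overlapped widely.

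**Figure D4:**
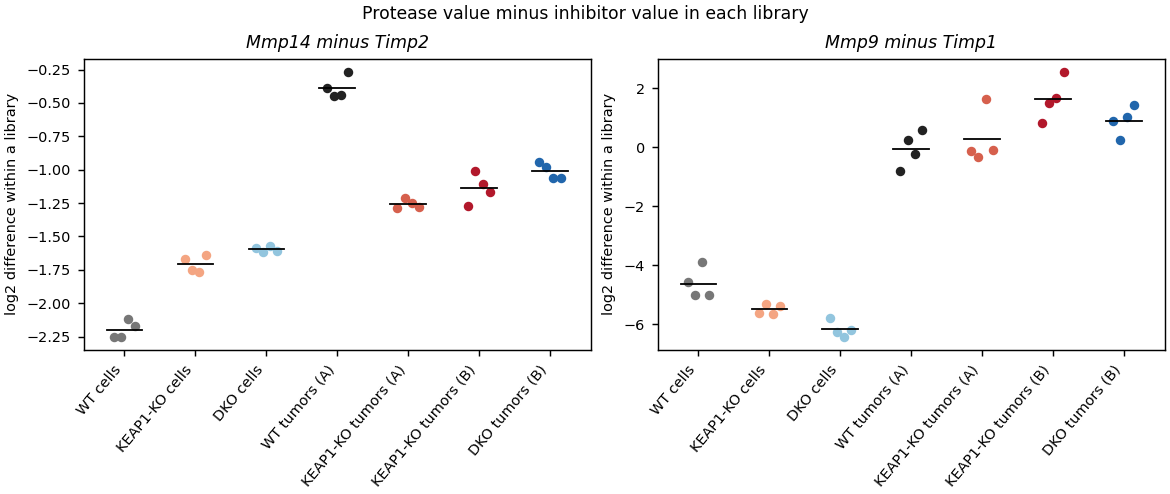
Each point is the log2 value of the protease minus that of the inhibitor in 1 library, and lines are group means. The 4 WT tumors have the highest Mmp14 minus Timp2 of all libraries, with a mean of -0.39, whereas in Mmp9 minus Timp1 all tumors lie above all cells.

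Marker lists of host cell types moved with some of these genes. Ptprc, which encodes CD45 of leukocytes, had a median of 495.1 normalized counts in the WT tumors, 99.8 and 169.9 in the KEAP1-KO tumors of Experiments A and B and 366.0 in the DKO tumors. The summed level of 10 macrophage markers (all with a row, Adgre1 at 0 in all cell libraries) ranged from 8665.1 to 11899.7 in WT tumors, 3729.1 to 4597.3 and 6092.9 to 6961.8 in KEAP1-KO tumors of A and B, and 8772.0 to 11659.9 in DKO tumors. Of these markers 9 of 10 fell in KEAP1-KO against WT tumors (13.1% of all rows called) and 6 of 10 rose in DKO against KEAP1-KO tumors (8.86%). By group, Mmp13 and Mmp12 were also highest in WT and lowest in KEAP1-KO tumors. Within groups they did not always follow the macrophage sums. WT replicate 4 had the lowest macrophage sum of its group (8665.1) and the highest Mmp13 (134.1) and Mmp12. DKO replicate 4 likewise had the lowest macrophage sum (8772.0) and the highest Mmp13 and Mmp12 of its group. Among KEAP1-KO tumors, replicate 4 of Experiment B was highest of its group in both the sum (6961.8) and Mmp12. Replicate 3 of Experiment A was lowest of its group in both (3729.1). The macrophage sums of DKO and WT tumors overlapped, and Mmp13 was lower in every DKO tumor than in every WT tumor. Between the KEAP1-KO tumors of the 2 experiments 6 of 10 macrophage markers were higher in Experiment B (median log2 difference 0.76, with 0.164% of all rows called), where Mmp13 (0.58) and Mmp9 (1.27) were uncalled. That count was not kept: of the whole table only 5 rows were called with only these groups in the fit, and 0 to 45 with one library left out. Of the neutrophil markers 4 of 5 were lower in DKO than in WT tumors (median log2 difference -1.92, against -0.02 over all rows, of which 10.6% were called).

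The 5 neutrophil markers with a row of the 10 listed (S100a9 and Retnlg at 0 in all cell libraries) summed to 428.7 to 1840.3 in WT and 114.0 to 396.8 in KEAP1-KO tumors of A, and to 100.8 to 254.6 and 225.0 to 299.1 in KEAP1-KO and DKO tumors of B. The 10 fibroblast markers, with Fap at 0 in all cell libraries, summed to 4972.6 to 12621.8 in WT, 2049.7 to 4999.5 and 3049.6 to 3775.9 in KEAP1-KO and 10927.9 to 15215.3 in DKO tumors, and Mmp14 too was highest in DKO and lowest in KEAP1-KO tumors. The median log2 difference of single fibroblast markers was 0.39 in DKO minus KEAP1-KO and 0.20 in DKO minus WT tumors. The list was also read in culture, where host cells are absent, with sums of 375.1 to 546.0 in WT, 466.3 to 567.1 in KEAP1-KO and 580.4 to 725.1 in DKO cells, and Mmp14 too was highest in DKO cells. Of the fibroblast markers tested 2 of 9 fell in KEAP1-KO against WT tumors and 3 of 9 rose in DKO against KEAP1-KO tumors, and of the neutrophil markers 4 of 5 fell and 1 of 5 rose, beside the same 13.1% and 8.86% of all rows. The 8 endothelial markers, with Tie1 and Emcn at 0 in all cell libraries, ranged over 969.0 to 1542.0 in all tumors, with none called in the former comparison and 1 of 8 lower in the latter. The 6 skeletal muscle markers, with Myh4 at 0 in all cell libraries, had a median sum of 21.2 in WT, 17.0 and 14.1 in KEAP1-KO and 231.0 in DKO tumors. Of the DKO tumors, replicate 4 had the lowest of these sums (21.3 against 180.3 to 403.2), the lowest Mmp2 (16.2), Mmp3 (2.6) and Timp3 (45.2) of its group, and the highest Mmp9 (568.8), Mmp12 (25.6), Mmp13 (45.2), Mmp14 (6311.1) and Timp2 (13163.6). That tumor also had the lowest Ptprc (280.5) and macrophage sum (8772.0) of its group. The part of the cells of any of these lists in the members' differences was not tested.

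**Figure D5:**
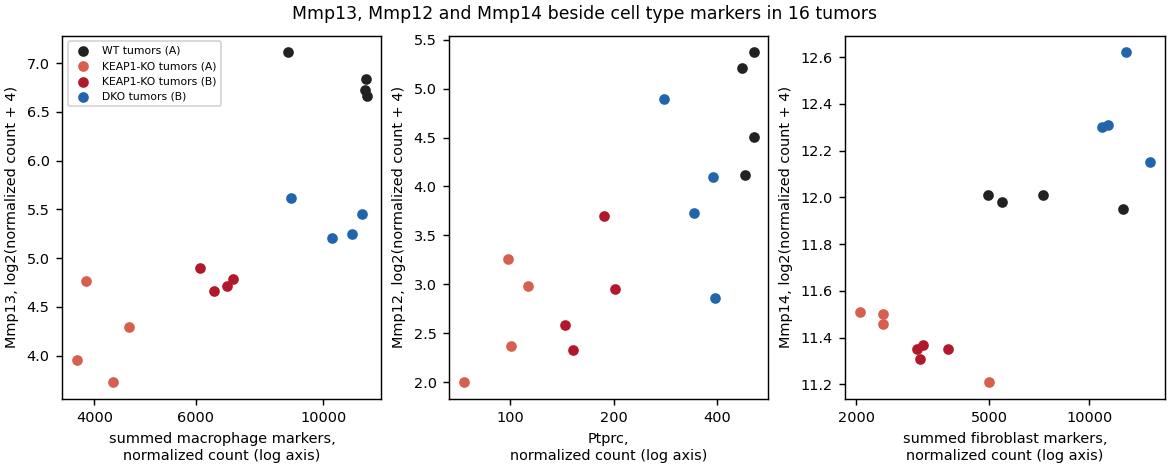
Each point is 1 of 16 tumors, with a gene's log2(normalized count + 4) against the normalized count of Ptprc or the summed markers of macrophages or fibroblasts (log axes). WT tumors are above the DKO tumors in Mmp13 at macrophage sums that overlap.

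For each member, the 3 rows whose values followed it most closely over the 16 tumors are given as a description. These correlations (Pearson's r) run over groups that differ and libraries that share depth and makeup. Mmp2 followed Col1a2 (r = 0.964) and Col12a1 (0.958), which encode fibril-forming and fibril-associated collagen, and Adamts2 (0.964), which trims procollagen. Mmp9 followed Acp5 (0.968), Ctsk (0.904) and Atp6v0d2 (0.851), the tartrate-resistant phosphatase, cathepsin K and a proton pump subunit known from osteoclasts and some macrophages. Mmp14 followed transcripts of Dcn (0.979), Rgma (0.973) and Lrp1 (0.965), the last an endocytic receptor that clears MMPs.

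Mmp13 followed Mertk (0.971), a receptor for the uptake of dying cells in macrophages, Ifitm1 (0.964) and Lbh (0.948). Mmp12 followed Hspa1a (0.887), the neutrophil chemokine receptor Cxcr2 (0.881) and the neutrophil collagenase Mmp8 (0.876). Timp3 followed H2af-ps2 (0.956), Gm15772 (0.953) and Ptn (0.952), and Timp2 followed Smim14 (0.949), Tmprss11b (0.946) and Tom1 (0.942). The likeness was weaker for Timp1 (A230004M16Rik 0.804, Gm47632 0.802 and Rnf165 0.795) and for Mmp3 (Hmcn1 0.75, Gm9924 0.75 and Stk10 0.745).

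Other metalloproteinases and the proteins that act on MMPs were taken from fixed lists. Of 17 other MMPs and Timp4, 10 had a row and 6 could be tested in the tumors: in KEAP1-KO against WT tumors 4 fell and none rose (13.1% of all rows called), and in DKO against KEAP1-KO tumors 1 rose and 1 fell (8.86%). Mmp8, in the same chromosome 9 cluster as Mmp12 and Mmp13, had no read in any cell library and fell in KEAP1-KO tumors by 2.71 (SE 0.23, adjusted p = 1.0e-06), from 73.5 ± 21.5 to 7.8 ± 3.0 normalized counts (SD, n = 4). It rose by 1.69 (SE 0.23, adjusted p = 1.9e-04) in DKO tumors, to 32.6 ± 4.2 from 7.5 ± 2.6. Mmp25, the membrane-anchored leukolysin of neutrophils, read as a decay transcript, fell by 2.22 in KEAP1-KO tumors. Mmp19 was lower in DKO than in KEAP1-KO, in tumors (-0.62) and in cells (-0.71), and Mmp28 lower in KEAP1-KO than in WT cells (-0.80), a call lost when WT replicate 2, 3 or 4 or KEAP1-KO replicate 1 or 4 was left out (highest adjusted p = 0.066).

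Of 24 activators and regulators, 16 were tested in tumors, with 2 higher and 6 lower in KEAP1-KO against WT (13.1% of all rows called) and 4 higher and 2 lower in DKO against KEAP1-KO (8.86%). The rows of Lcn2, Thbs1, Plat and Cav1 are transcripts annotated without a coding sequence. Lcn2, the lipocalin that binds MMP9 and protects it from degradation, differed by -2.66 and then by 1.42, the latter call lost when KEAP1-KO replicate 1, 3 or 4 or DKO replicate 1 or 4 was left out (adjusted p of 0.0521 to 0.0709). Thbs1, the matrix protein thrombospondin 1, differed by -2.36 and 2.37. Plat, the tissue-type plasminogen activator, was higher in KEAP1-KO than in WT tumors (0.75) and lower in DKO than in KEAP1-KO tumors (-0.83). A decay transcript of Plau, the urokinase-type activator, was higher in KEAP1-KO than in WT tumors of Experiment A (4.47, SE 1.16, adjusted p = 0.0168), a call lost with the replicate block (adjusted p = 0.0784). It averaged 92.7 normalized counts in those KEAP1-KO tumors and 16.7 in those of Experiment B, where 3 of 4 libraries were at 0. In cells Thbs2 was lower by 1.30 in KEAP1-KO than in WT (log2 difference -1.30) and Cav1 had a difference of -1.61, and in DKO against KEAP1-KO cells the differences were -0.98 and 0.56. Plat was higher in KEAP1-KO than in WT cells (0.87, adjusted p = 0.0195), except without WT replicate 1 or KEAP1-KO replicate 2 or 4 (highest adjusted p = 0.0597).

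Of 30 ADAM and ADAMTS enzymes, relatives of the MMPs, 20 were tested in tumors and 14 in cells. In tumors 1 rose (Adamts8, 1.01, adjusted p = 0.0262, lost with only the groups compared and without WT replicate 1 or 4 or KEAP1-KO replicate 3 or 4, at 0.067 to 0.0817) and 3 fell in KEAP1-KO (13.1% of all rows called), among them Adam19 (-0.95) and Adamts14 (-0.89), and 1 fell in DKO against KEAP1-KO (8.86%; Adamtsl4, -2.13). In cells 5 of 14 were higher and none lower in KEAP1-KO than in WT (15.5% of all rows called), and 3 were higher and 1 lower in DKO than in KEAP1-KO (8.83%). Among them Adamts1, which cleaves the proteoglycans aggrecan and versican, rose by 3.14 (SE 0.18) from WT to KEAP1-KO and by a further 1.84 (SE 0.18) to DKO. Adamts14 differed by 0.75 between DKO and KEAP1-KO cells and Adamtsl4 by -1.42, and a decay transcript of Adam10 by 4.08 (SE 0.94) between KEAP1-KO and WT cells.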

How the data were processed

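RNA-seq values of 28 libraries were used, 16 from tumors and 12 from cells, grouped by sample title. The authors removed ribosomal RNA, prepared directional libraries and quantified them with Salmon against GENCODE mouse transcripts. The table that the authors deposited holds log2 values of a normalized count plus 4: its lowest value is 2, and turned back they came to whole reads in 100% of the values checked, those up to 20 reads (tolerance 0.05). The study's methods speak of TPM, and how the table was normalized is not given in the sources used here. The labels' extraction protocol names liver, against the titles and the methods, which were followed. Row kinds and the genes of rows without a symbol were taken from GENCODE vM21. The table held 0 columns of other samples.

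The members and gene lists were chosen with earlier results of these data known. Values were tested with limma 3.58.1 (R 4.3.3; lmFit, eBayes with trend, Benjamini-Hochberg, threshold 0.05) on rows that reached 5 normalized counts in 4 or more libraries of the fit, in fits of 16 tumors (34215 rows), 12 cell libraries (29744) and all 28 (37246). No count model was run, and the reads turned back were used only to describe depth and set the floor of 3 reads. All members were described, and list genes were named by the 2 highest and 2 lowest called differences per list and genotype comparison, of which 1 gene is not reported here. The scripts were tested on simulated data. Alternatives were a pseudocount of 1, no filter, quantile normalization, median centring, only the groups compared, no trend, a replicate block and leaving out each library. Libraries of the same replicate number in compared groups did not deviate together (correlations of -0.034 to 0.04). Promoters came from RefSeq (GRCm38.p6) by symbol, for 8 of the 10 members. Python 3, pandas and matplotlib were used for values and figures.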

Additional observations from a re-analysis of the deposited data

Results flagged for a closer look

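Each group of 4 was checked for a library far from the other 3. Of 60 pairs of a member and a group with any spread, 7 had one, and about 1 in 20 is flagged by chance. In the KEAP1-KO tumors of Experiment A, replicate 3 was high for Mmp9 (9.53, log2) and low for Mmp14 (11.21). Replicate 4 of the DKO tumors was high for Timp2 (13.68). In culture replicate 3 of the WT cells was the only one above the floor for Mmp2 (2.62, 2 reads) and Mmp13 (2.35, 1 read), and Timp2 was low in WT replicate 2 (11.62) and KEAP1-KO replicate 1 (11.72). The difference between KEAP1-KO and WT differed between tumors and cells for Mmp13 (-3.14), Mmp12 (-2.15) and Mmp14 (-1.24), and that between DKO and KEAP1-KO for Mmp13 (1.04), by the interaction in limma.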

How the results depend on the processing

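Of 51 calls of members over the 13 comparisons, 43 stayed past the threshold in every alternative run and 8 were lost in at least 1. The lost calls were Mmp14 in DKO against WT tumors, Timp2 in KEAP1-KO against WT cells, Mmp3 in 3 sets of tumors against cells, Timp3 and Mmp12 each in 1 set, and Mmp13 in the interaction for DKO minus KEAP1-KO. The differences that changed sign were all uncalled. With one library left out, KEAP1-KO minus WT tumors ranged from -1.14 to 0.24 for Timp3 and from -0.03 to 0.80 for Mmp9, and DKO minus KEAP1-KO tumors from -0.19 to 0.74 for Mmp2 and from -0.27 to 0.53 for Mmp3. Likewise the KEAP1-KO tumors of Experiment B minus A ranged from -0.18 to 0.04 for Timp1, -0.43 to 0.04 for Mmp3 and -0.03 to 0.44 for Mmp12, DKO minus WT tumors from -1.09 to 0.30 for Timp3 and -0.32 to 0.74 for Mmp2, and DKO minus WT cells from -0.70 to 0.08 for Timp3. The interaction for DKO minus KEAP1-KO ranged from -0.37 to 0.37 for Mmp9, -0.35 to 0.46 for Mmp3, -0.03 to 0.19 for Timp1 and -0.62 to 0.31 for Mmp2, and the count of members called in it from 0 to 1. It was -0.04 for Mmp3 with a pseudocount of 1, -0.05 for Mmp3 with quantile normalization and -0.05 for Mmp9 with median centring, and the interaction for KEAP1-KO minus WT was -0.02 for Timp2 with quantile normalization. The cause was not tested. The rows called between the KEAP1-KO tumors of the 2 experiments numbered 56, and 20 with no filter, 5 with only these groups, 8 with no trend and 0 to 45 with one library left out. Lcn2 in DKO against KEAP1-KO tumors was lost with the block (adjusted p = 0.0672) and without KEAP1-KO replicate 1, 3 or 4 or DKO replicate 1 or 4 (0.0521 to 0.0709).

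With the replicate number as a block, 3 members were called in KEAP1-KO against WT tumors and 2 in DKO against KEAP1-KO tumors, as without it, while 4 in place of 3 were called in KEAP1-KO against WT cells and 7 in place of 8 in KEAP1-KO tumors of Experiment B against cells. Between WT and DKO cells every library deviated most like the one with its own number. These correlations were close to none (0.024 to 0.038), and the labels state no pairing. No paired analysis was possible because no numbers are shared by design across experiments, for the 2 comparisons between Experiments A and B. Low reads limit Mmp3, Mmp12 and, in cells, Mmp2, Mmp9 and Mmp13.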
